A study of Mus musculus with 12 samples.

Results

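The genes described here are 9 immediate early transcription factor genes, Fos, Fosb, Fosl2, Jun, Junb, Egr1, Egr2, Atf3 and Nr4a1, and the immediate early gene Arc, which encodes a protein of the neuronal synapse. They were taken by symbol from the 2 joint tables of raw read counts, and all 10 were found among the 55809 gene symbols listed. The counts came from RNA sequencing of 12 libraries of sorted mouse cells in 4 groups of 3. TOM positive and TOM negative cells were sorted from the hypothalamus of untreated Mc4r-Cre; Ai14 mice aged 4 weeks. In these mice Cre is made from the Mc4r gene, the gene of the melanocortin 4 receptor, and Ai14 turns on the red reporter tdTomato (TOM) in cells that have had Cre. AAV-Cre and AAV-GFP cells came from Otp fl/fl; Ai14 mice, whose hypothalamic paraventricular nucleus (PVH) was dissected at an age of 26 weeks. These mice had received an adeno-associated virus (AAV) carrying Cre or green fluorescent protein 12 weeks earlier. Both AAV groups carry the Ai14 reporter and floxed Otp, a homeodomain factor gene of hypothalamic neurons. The AAV-Cre group was sorted as TOM positive cells and the AAV-GFP group as GFP positive cells, so virus and sorted fluorophore cannot be told apart. The labels give no promoter for the virus and do not say whether libraries are from separate animals. The p-values therefore describe the spread among libraries, and that spread may be technical.

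Immediate early genes are transcribed soon after a cell is stimulated, without the need for new protein. Fos and Jun family proteins, with relatives such as Atf3, pair through leucine zippers to form the transcription factor AP-1, while the Egr proteins bind DNA through zinc fingers and Nr4a1 is an orphan nuclear receptor. Fos and Egr1 are widely used as marks of recent activity in neurons, and they are also induced in glial and blood cells by many signals. Arc protein acts after synaptic activity, where it takes part in the removal of AMPA-type glutamate receptors from the cell surface.

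The libraries held 13506018 to 27827853 counts each. The 10 genes together took 0.104%, 0.112% and 0.0949% of the counts in TOM positive libraries 1, 2 and 3, against 0.874%, 0.773% and 0.911% in the TOM negative ones. They took 0.286%, 0.559% and 0.451% in the AAV-Cre libraries, against 0.188%, 0.199% and 0.115% in the AAV-GFP ones. Thus the combined share was lower in all TOM positive than in all TOM negative libraries, and higher in all AAV-Cre than in all AAV-GFP libraries. Otp had 12, 9 and 10 counts in AAV-Cre libraries 1, 2 and 3, against 91, 102 and 38 in AAV-GFP libraries, and its edgeR adjusted p was 0.134. The labels do not say which part of Otp is floxed. Mc4r had 63 counts in TOM positive library 1 and 0 in every other TOM positive or TOM negative library. The study describes the sorted cells as neurons, but in TOM positive libraries 15 neuron markers took 0.0642% to 0.0812% of the counts and 10 oligodendrocyte markers took 8.56% to 9.59%. In bulk libraries, fewer cells of a type and less RNA per cell cannot be told apart.

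The sequences before the start are shown for 4 of the 8 members that fell in the first comparison below. Egr2 and Atf3 are among them because they passed the test in both comparisons. All 4 hold the short motif marked here, while Jun, which also fell, held no match to any motif searched and is not shown. RefSeq windows on build GRCm38.p6 ran from 250 bases before to 50 bases after each annotated start. They were used for 8 of the 10 members, and no window of Egr1 or Arc was searched. Capitals mark matches to the short cAMP response element (CRE) motif TGACG, to TATAAA and to the CArG box that serum response factor binds. Both strands were searched, and a full CRE, TGACGTCA, would overlap the short one. Only the 250 bases before the start are printed, 5′ to 3′ on the gene's strand.
Fos, chr12:85473640-85473889, plus strand: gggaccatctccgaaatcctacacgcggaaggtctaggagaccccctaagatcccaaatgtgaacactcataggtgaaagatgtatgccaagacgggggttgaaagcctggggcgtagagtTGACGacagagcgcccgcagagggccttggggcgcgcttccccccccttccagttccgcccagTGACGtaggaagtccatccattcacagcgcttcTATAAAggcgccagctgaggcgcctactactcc
Egr2, chr10:67537619-67537868, plus strand: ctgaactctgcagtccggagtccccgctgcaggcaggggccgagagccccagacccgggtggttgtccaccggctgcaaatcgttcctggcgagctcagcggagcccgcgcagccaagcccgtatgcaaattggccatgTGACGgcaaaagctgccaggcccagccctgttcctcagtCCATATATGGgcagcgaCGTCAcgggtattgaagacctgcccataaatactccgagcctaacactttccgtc
Atf3, chr1:191183334-191183583, minus strand: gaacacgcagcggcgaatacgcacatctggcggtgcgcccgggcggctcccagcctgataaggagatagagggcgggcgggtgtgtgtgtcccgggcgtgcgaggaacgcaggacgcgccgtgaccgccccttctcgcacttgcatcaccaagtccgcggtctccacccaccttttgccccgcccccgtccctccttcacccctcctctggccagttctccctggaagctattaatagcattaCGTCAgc
Nr4a1, chr15:101266596-101266845, plus strand: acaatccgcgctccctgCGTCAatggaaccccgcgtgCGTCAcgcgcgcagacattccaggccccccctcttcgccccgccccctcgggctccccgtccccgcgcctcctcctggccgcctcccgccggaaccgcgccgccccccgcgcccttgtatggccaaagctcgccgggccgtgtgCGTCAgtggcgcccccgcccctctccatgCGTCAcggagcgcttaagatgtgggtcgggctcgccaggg

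The short CRE motif TGACG lay in a window of 6 of the 8 members, Fos, Fosb, Junb, Egr2, Atf3 and Nr4a1, and in 20.8% of all 32851 windows of the same length, or in those of 23% of 27025 genes. Fos held it at positions -129 and -66, counted from the annotated start as 0, and TATAAA at position -33. Egr2, with 5 annotated starts, held it at -111 and -55 of the window shown, on either side of a CArG box, CCATATATGG, at -72. Nr4a1 held 4 matches, at -233, -213, -69 and -40, and Atf3 held 1, at -7. The full CRE lay in no member's window and in 1.79% of all windows. TATAAA lay in the windows of Fos and Junb and in 13.6% of all windows. Among the 8 members searched, the CArG box lay only in windows of Egr2, which had 5 windows, some of them overlapping. It lay in 1.63% of all windows, or in those of 1.81% of genes. Neither the AP-1 motif TGANTCA, present in 7.81% of all windows, nor the Egr motif GCGTGGGCG, present in 0.612%, was found in a member's window. These matches describe letters in a short window and are not evidence of binding.

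The first comparison set TOM positive against TOM negative cells of the hypothalamus, and the study asked it in search of regulators of Mc4r. Of the 10 genes, 8 transcription factor genes fell in TOM positive cells, Arc rose and Fosl2 did not pass the test. In this comparison 23.9% of the 15228 genes tested passed an edgeR adjusted p of 0.05, with 13.4% lower and 10.4% higher in TOM positive cells. The 3 TOM positive libraries did not overlap the 3 TOM negative ones for any of the 10 genes, against 46.4% of all genes tested. The median log2 fold change was -3.25 over the 10 genes and -0.02 over all genes tested. All 10 passed the filter on low counts. At an unadjusted p under 0.05, 9 of the 10 were lower and 1 higher, against 36.4% of all genes in either direction and 16.9% higher. Levels are given below in CPM, the counts of a gene over its library's total after TMM scaling within each pair of groups, and as mean ± SD over 3 libraries.

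**Figure D1:**
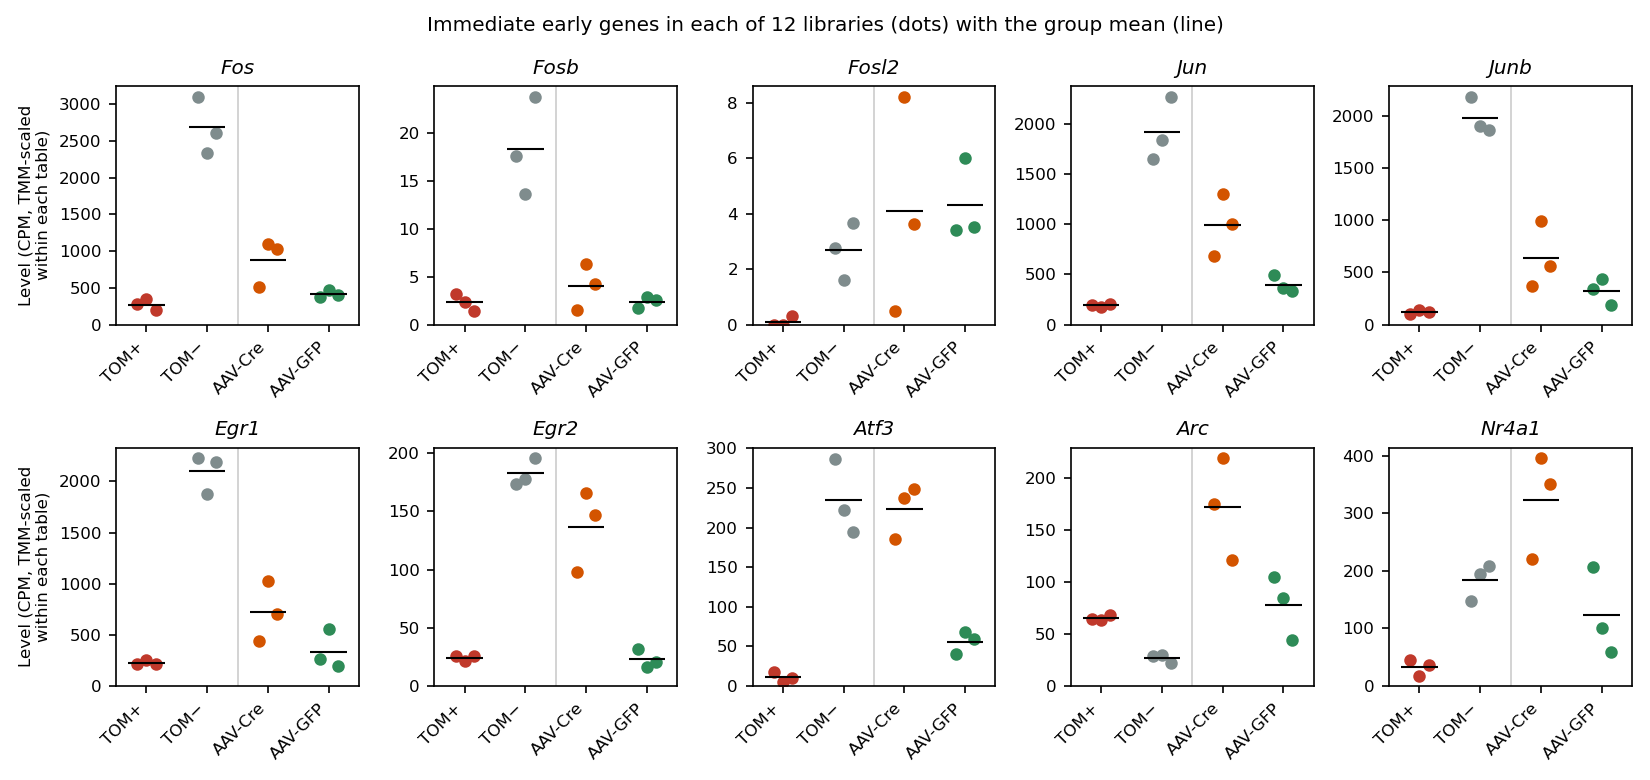
Level of each of the 10 genes in CPM (vertical axis, a scale of its own in each panel, TMM-scaled within each pair of groups) in TOM positive, TOM negative, AAV-Cre and AAV-GFP libraries. Each dot is a library and each line the mean of 3. Fos lay between 195 and 348 CPM in TOM positive libraries, below all TOM negative libraries, while Arc lay between 63.7 and 67.7 CPM, above all of them.

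Fos (chromosome 12, 85520664 to 85524047, plus strand of the GENCODE vM30 annotation), the prototype gene of its family, had 273, 348 and 195 CPM in TOM positive libraries 1, 2 and 3. In the TOM negative libraries it had 3100, 2340 and 2610 CPM. Every TOM positive library was far below every TOM negative one. The means were 272 ± 76.4 CPM in TOM positive cells, against 2680 ± 388 CPM in TOM negative cells, a log2 change of -3.30 ± 0.25 (SE, edgeR adjusted p = 0.000292), or 9.85-fold lower. Ranked by counts per kb of exon, Fos stood at rank 256 to 514 of all genes in TOM positive libraries, against rank 32 to 39 in TOM negative ones.

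Fosb (chromosome 7, 19036621 to 19043976, minus strand) encodes an AP-1 subunit whose shortened form accumulates on repeated stimulation of neurons. It was a low-level gene, with 63, 68 and 42 counts, or 3.23, 2.31 and 1.39 CPM, in TOM positive libraries. TOM negative libraries had 350, 281 and 519 counts, or 17.6, 13.6 and 23.8 CPM. The groups were clearly apart, and Fosb fell by 2.99 ± 0.53 on the log2 scale (edgeR adjusted p = 0.00834). Fosl2 (chromosome 5, 32293145 to 32315186, plus strand), the gene of the Fos-related protein Fra-2, had 0, 0 and 9 counts in TOM positive libraries. It had 55, 33 and 80 counts in TOM negative libraries. All TOM positive values were below all TOM negative ones, but the estimate of -4.63 ± 1.68 was imprecise and did not pass (edgeR adjusted p = 0.0886).

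Jun (chromosome 4, 94937271 to 94940459, minus strand), the main partner of Fos in AP-1, had 196, 170 and 205 CPM in TOM positive libraries. It had 1650, 1840 and 2270 CPM in TOM negative libraries. The 3 TOM positive values were close together and far below the TOM negative ones. Jun averaged 191 ± 18.2 CPM in TOM positive cells, against 1920 ± 318 CPM in TOM negative cells, a log2 change of -3.33 ± 0.18 (edgeR adjusted p = 9.35e-05). Of the exon bases of Jun, 7.28% were shared with Junos on the opposite strand, and the counting shows no strand setting in the AAV files and is not described for the TOM table, so reads from this stretch cannot be assigned with certainty.

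Junb (chromosome 8, 85701113 to 85705347, minus strand) encodes a Jun protein that activates transcription less strongly than Jun at many targets. It had 104, 136 and 119 CPM in TOM positive libraries, against 2180, 1900 and 1860 CPM in TOM negative libraries. No TOM positive library came near a TOM negative one. The means of 120 ± 16.1 CPM in TOM positive cells, against 1980 ± 175 CPM in TOM negative cells gave a log2 change of -4.05 ± 0.17 (edgeR adjusted p = 5.66e-05), the smallest p among the 10 genes. Of the exon bases of Junb, 7.52% were shared with Prdx2 on the other strand. Prdx2 itself had a log2 change of -0.41 ± 0.16 (edgeR adjusted p = 0.113).

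Atf3 (chromosome 1, 190902493 to 190950236, minus strand) encodes a stress-induced factor that pairs with Jun proteins and can repress its targets. Its level was 17.8, 4.66 and 9.99 CPM in TOM positive libraries, against 287, 222 and 195 CPM in TOM negative libraries. The TOM positive values varied 3.82-fold among themselves and still lay far below the TOM negative ones. Atf3 fell by 4.44 ± 0.50 on the log2 scale (edgeR adjusted p = 0.00138), the largest fall among the members that passed.

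Egr1 (chromosome 18, 34992876 to 34998037, plus strand), a zinc finger factor gene that many growth and synaptic signals induce, had 215, 252 and 215 CPM in TOM positive libraries. It had 2230, 1880 and 2190 CPM in TOM negative libraries. Both groups were tight and did not overlap. The means were 227 ± 21.3 CPM in TOM positive cells, against 2100 ± 190 CPM in TOM negative cells, a log2 change of -3.21 ± 0.15 (edgeR adjusted p = 7.21e-05). Egr2 (chromosome 10, 67371305 to 67378018, plus strand) encodes a relative of Egr1 that is also required for myelination by Schwann cells. Egr2 had 25.6, 21.2 and 25.8 CPM in TOM positive libraries, against 174, 178 and 196 CPM in TOM negative libraries. This was a fall of 2.91 ± 0.17 on the log2 scale (edgeR adjusted p = 0.000128) with no overlap.

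Nr4a1 (chromosome 15, 101152150 to 101172676, plus strand), the gene of the nuclear receptor Nur77, had 44.6, 17.2 and 36.9 CPM in TOM positive libraries. It had 148, 195 and 208 CPM in TOM negative libraries. The lowest TOM positive library was replicate 2, which was also the lowest for Atf3, Jun, Egr2 and Arc. Nr4a1 averaged 32.9 ± 14.1 CPM in TOM positive cells, against 184 ± 31.5 CPM in TOM negative cells, a log2 change of -2.48 ± 0.36 (edgeR adjusted p = 0.00391). It was the smallest fall among the 8 genes that fell.

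Arc (chromosome 15, 74540932 to 74544419, minus strand) went the other way. It had 1256, 1874 and 2039 counts, or 64.3, 63.7 and 67.7 CPM, in TOM positive libraries. TOM negative libraries had 574, 609 and 481 counts, or 28.8, 29.4 and 22.0 CPM. The TOM positive values were nearly equal and all above the TOM negative ones. The means of 65.2 ± 2.14 CPM in TOM positive cells, against 26.8 ± 4.13 CPM in TOM negative cells gave a log2 change of 1.29 ± 0.21 (edgeR adjusted p = 0.00642), or 2.44-fold higher. Without scaling factors all log2 values shifted up, by 0.26 in the median, and 59% of the genes that passed were then higher, against 43.7% with TMM scaling. The 9 calls among the members held in all 14 alternative settings, in which the estimate for Arc ran from 1.14 to 1.55.

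**Figure D2:**
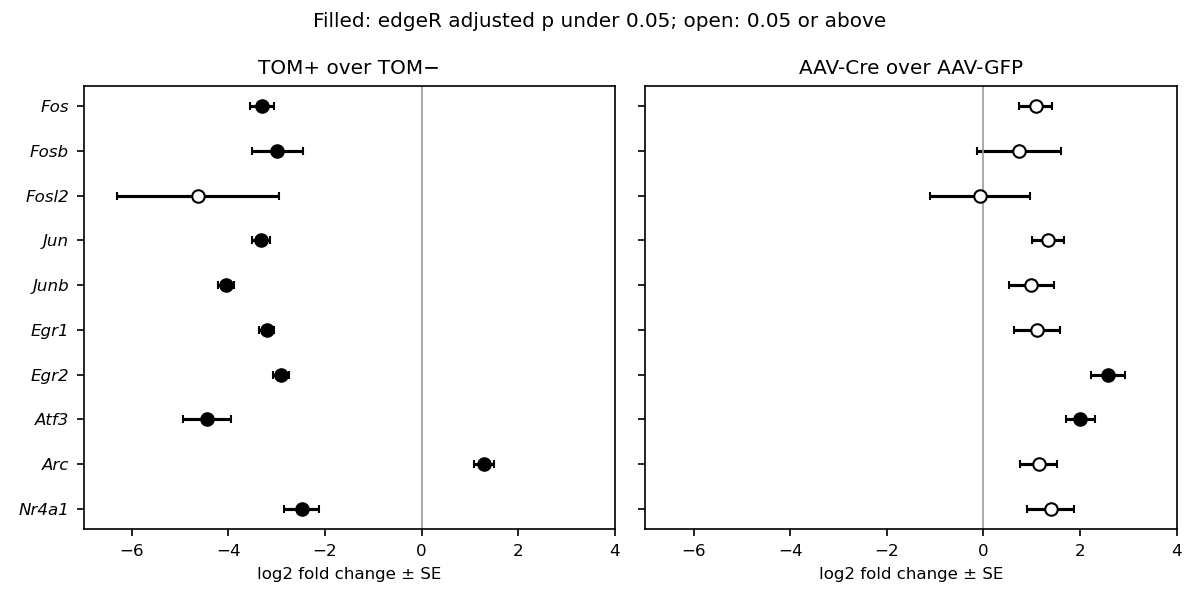
Log2 fold change of each of the 10 genes with its SE (horizontal axis), for TOM positive over TOM negative cells on the left and AAV-Cre over AAV-GFP cells on the right. Filled dots passed an edgeR adjusted p of 0.05 and open dots did not. On the left 8 genes lie at -2.48 or below and are filled, and only Arc lies above 0, while on the right only Egr2 and Atf3 are filled.

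Markers of other cell types moved in the same comparison. The 12 microglia and macrophage markers took 0.0468% to 0.109% of the counts in TOM positive libraries, against 2.4% to 2.68% in TOM negative libraries, and 11 of the 12 fell, with none at 0 in every library of a group. The 9 blood markers took 0.0246% to 0.0486%, against 2.01% to 4.62%, and 6 of 9 fell, with Cd3e at 0 in all TOM positive libraries. The 10 endothelial markers took 0.00274% to 0.022%, against 0.0781% to 0.0975%, and 5 of 10 fell. Neuron markers took 0.0642% to 0.0812%, against 0.0107% to 0.0132%, and 9 of 15 rose. Oligodendrocyte markers took 8.56% to 9.59%, against 1.7% to 2.2%, and all 10 rose. Mitochondrially encoded genes took 0.614% to 0.984% of the counts in TOM positive libraries, against 0.228% to 0.27% in TOM negative libraries. The 9 calls held with these genes removed, a step that leaves the counts of other genes unchanged and cannot test library quality. The part of the cell type markers in the levels of the 10 genes was not tested.

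The second comparison set AAV-Cre against AAV-GFP cells of the PVH, with excessive weight gain as the study's question. Of the 10 genes, Egr2 and Atf3 rose after AAV-Cre, 0 fell and 8 did not pass the test. Here 2.60% of the 15408 genes tested passed an edgeR adjusted p of 0.05, with 0.630% higher and 1.97% lower after AAV-Cre. The AAV-Cre libraries lay above the AAV-GFP ones without overlap for 6 members, Fos, Jun, Egr2, Atf3, Arc and Nr4a1, against 9.87% of all genes tested in this direction, 18.6% in the other and 28.5% in either. These 6 also had an unadjusted p under 0.05, as did 6.70% of all genes tested in that direction and 18.8% in either. The median log2 fold change was 1.12 over the 10 genes and -0.16 over all genes tested. DESeq2 called 5 members higher, Fos, Jun, Egr2, Atf3 and Nr4a1, and 0 lower. Over all genes DESeq2 called 3.65% higher and 6.29% lower, more than edgeR did. At an unadjusted edgeR p under 0.05, 0 members were lower.

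Egr2 had 1571, 2458 and 2137 counts, or 97.8, 166 and 147 CPM, in AAV-Cre libraries 1, 2 and 3. AAV-GFP libraries had 608, 231 and 290 counts, or 31.4, 16.7 and 20.4 CPM. Every AAV-Cre library was several times above every AAV-GFP one. The means were 137 ± 35.3 CPM after AAV-Cre and 22.8 ± 7.63 CPM after AAV-GFP, a log2 change of 2.58 ± 0.36 (edgeR adjusted p = 0.0248), or 5.99-fold higher. The call was lost without AAV-Cre replicate 2 or without any AAV-GFP replicate, with an adjusted p of up to 0.116, while the estimate stayed between 2.39 and 2.94 with 1 library left out. Among 4 members with printed sequences, Egr2 was the one with a CArG box within the printed bases. Sequence outside the windows was not searched, so a CArG box farther from the start of any member would have been missed. Atf3, which also passed here, had no CArG box in its window. A link between this motif and the change was not tested.

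Atf3 had 185, 237 and 249 CPM in AAV-Cre libraries, against 40.8, 67.6 and 58.8 CPM in AAV-GFP libraries. The lowest AAV-Cre library was well above the highest AAV-GFP one. Atf3 averaged 224 ± 34.4 CPM after AAV-Cre and 55.7 ± 13.7 CPM after AAV-GFP, a log2 change of 2.00 ± 0.30 (edgeR adjusted p = 0.0258). The call was lost without AAV-Cre replicate 2 or 3 or without any AAV-GFP replicate, with an adjusted p of up to 0.135 and estimates from 1.89 to 2.16. Over all genes, 400 passed with all 6 libraries, 122 without AAV-Cre replicate 2, and 0, 2 and 0 without AAV-GFP replicates 1, 2 and 3.

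The next members by p did not pass the adjusted threshold although their groups did not overlap. Jun had 687, 1300 and 1000 CPM in AAV-Cre libraries, against 494, 362 and 334 CPM in AAV-GFP libraries, with a log2 change of 1.33 ± 0.33 (edgeR adjusted p = 0.0666). Fos had 514, 1090 and 1030 CPM in AAV-Cre libraries, against 378, 463 and 402 CPM in AAV-GFP libraries, with an estimate of 1.08 ± 0.34 (edgeR adjusted p = 0.139). In both genes AAV-Cre library 1 was the one nearest to the AAV-GFP range.

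Nr4a1 had 220, 395 and 351 CPM in AAV-Cre libraries, against 207, 101 and 59.3 CPM in AAV-GFP libraries, with an estimate of 1.39 ± 0.48 (edgeR adjusted p = 0.174). Its lowest AAV-Cre value stood just above its highest AAV-GFP value. Arc had 175, 219 and 121 CPM in AAV-Cre libraries, against 105, 84.7 and 43.7 CPM in AAV-GFP libraries, with an estimate of 1.14 ± 0.39 (edgeR adjusted p = 0.172). Arc passed in none of the 14 alternative settings. A p that misses the threshold does not show that the levels were alike.

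The other 4 members overlapped between the AAV groups. Junb had 368, 989 and 562 CPM in AAV-Cre libraries, against 342, 438 and 186 CPM in AAV-GFP libraries, with an estimate of 0.99 ± 0.46 (edgeR adjusted p = 0.298). Egr1 had 443, 1030 and 706 CPM in AAV-Cre libraries, against 266, 555 and 191 CPM in AAV-GFP libraries, with an estimate of 1.11 ± 0.48 (edgeR adjusted p = 0.268). In both, AAV-Cre library 1 lay below AAV-GFP library 2. Fosb had 24 to 93 counts in AAV-Cre libraries, against 33 to 40 in AAV-GFP libraries, with an estimate of 0.74 ± 0.87 (edgeR adjusted p = 0.716). Fosl2 had 8, 121 and 53 counts in AAV-Cre libraries, against 66, 83 and 50 in AAV-GFP libraries, with an estimate of -0.07 ± 1.04 (edgeR adjusted p = 0.984). The AAV-Cre values of Fosl2 spanned 16.5-fold and enclosed all AAV-GFP values.

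The AAV-Cre libraries differed among themselves in a shared way. Replicate 2 was the highest AAV-Cre library for 9 of the 10 genes and replicate 1 the lowest for 9 of 10. Over all genes tested, replicate 2 was the highest for 33% and replicate 1 the lowest for 44.8%. Among AAV-GFP libraries, replicate 2 was highest for 6 members, replicate 1 for 4 and replicate 3 for 0. The shares over all genes tested were 35.8%, 33.3% and 30.9% in the same order. The coefficient of variation of Fos was 35.9% over AAV-Cre and 10.6% over AAV-GFP libraries, and that of Nr4a1 was 28.4% over AAV-Cre and 62.1% over AAV-GFP libraries.

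Other measures also differed between the AAV groups. AAV-Cre libraries had counts for 14747 to 16988 genes and AAV-GFP libraries for 20778 to 23902. Mitochondrially encoded genes took 2.33%, 1.64% and 2.17% of the counts in AAV-Cre libraries, against 2.63%, 1.44% and 7.2% in AAV-GFP libraries. AAV-GFP library 3, which stood apart at 7.2%, also had the lowest combined share of the 10 genes. The calls for Egr2 and Atf3 were lost with that library removed, as they were without either other AAV-GFP library. Both calls held with the mitochondrially encoded genes removed, a step that leaves the counts of other genes unchanged and cannot test library quality. The 12 microglia and macrophage markers took 0.583% to 1.09% of counts after AAV-Cre, against 0.262% to 0.436% after AAV-GFP, and 1 of 11 tested rose. Oligodendrocyte markers took 5.2% to 6.35% after AAV-Cre, against 1.38% to 4.74% after AAV-GFP, and 3 of 10 rose. Neuron markers took 0.294% to 0.349%, against 0.161% to 0.3%, with a median log2 change of 0.20. The 7 ependymal and tanycyte markers took 0.00213% to 0.00305%, against 0.0813% to 0.163%, and 4 of 7 fell, with Rax at 0 in all AAV-Cre libraries. The 10 endothelial markers took 0.00299% to 0.0067%, against 0.0445% to 0.0648%, with Cdh5 and Emcn at 0 in all AAV-Cre libraries. The 9 blood markers took 0.00289% to 0.00904%, against 0.0679% to 0.416%, and 2 of the 6 tested fell. The part of these differences in the levels of the 10 genes was not tested.

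Across all 4 groups, the order of levels was set with TMM scaling over the 12 libraries. As the groups of the first and second comparisons came from other regions, ages and tables, this order is a description without a test. Fos, Jun, Junb, Egr1 and Atf3 were lowest in TOM positive and highest in TOM negative cells, with AAV-Cre cells above AAV-GFP cells in between. On this scale Fos averaged 285 ± 82.5 CPM in TOM positive cells, 2850 ± 413 in TOM negative cells, 852 ± 308 in AAV-Cre and 383 ± 23.9 in AAV-GFP cells, and the libraries of the lowest pair overlapped. Jun averaged 199 ± 17.4 CPM in TOM positive cells, 2030 ± 331 in TOM negative cells, 971 ± 305 in AAV-Cre and 369 ± 89.4 in AAV-GFP cells, and it was the only member with no overlap between neighbours in the order. For Atf3 the TOM negative libraries, at 249 ± 50.9 CPM, overlapped the AAV-Cre libraries, at 217 ± 33.5 CPM, and with library totals alone AAV-Cre came first.

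Egr2 and Fosb were also highest in TOM negative and next in AAV-Cre cells, but lowest in AAV-GFP cells. For Egr2 the TOM positive libraries, at 25.3 ± 2.58 CPM, overlapped the AAV-GFP libraries, at 21.3 ± 7.83 CPM. Nr4a1 averaged 34.4 ± 14.7 CPM in TOM positive cells, 195 ± 33.1 in TOM negative cells, 313 ± 90.3 in AAV-Cre and 114 ± 74.1 in AAV-GFP cells. It was thus highest after AAV-Cre and lowest in TOM positive cells, and the TOM negative libraries between them overlapped both the AAV-Cre and the AAV-GFP libraries. Arc averaged 68.3 ± 1.53 CPM in TOM positive cells, 28.4 ± 4.45 in TOM negative cells, 167 ± 49.2 in AAV-Cre and 72.0 ± 29.4 in AAV-GFP cells. It was the only member that was lowest in TOM negative cells, and its AAV-GFP and TOM positive libraries overlapped. Fosl2, at 4.01 ± 3.80 CPM or less in every group, was lowest in TOM positive cells. TMM scaling within each table kept the order of 8 of the 10 genes, and library totals kept that of 9.

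Within their gene families, levels were compared as counts per kb of exon. Fos supplied 99.4% to 99.9% of the counts per kb of Fos, Fosb, Fosl1 and Fosl2 in every library, so the other Fos members were trace components throughout. In the Jun family, Junb made up 25.4% ± 2.43 in the TOM positive group, against 49.6% ± 4.89 in the TOM negative group. Jund, which is expressed more constantly than its relatives, made up 45.3% ± 2.15 in the TOM positive group, against 15.8% ± 0.285 in the TOM negative group. Neither share overlapped between the groups, and each had an exact two-sided permutation p of 0.1, the smallest that 3 against 3 libraries allow. The share of Jun overlapped, at 29.3% ± 3.79 in the TOM positive group, against 34.6% ± 4.85 in the TOM negative group. Per kb, Jund thus took the largest share in each TOM positive library and the smallest in each TOM negative one. By counts not divided by exon length, Jun averaged 41.1% and Jund 33.2% in the TOM positive group. Jund stayed the smallest by counts in the TOM negative group, at 10.5%. The level of Jund itself fell by 1.56 ± 0.15 on the log2 scale (edgeR adjusted p = 0.000668).

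**Figure D3:**
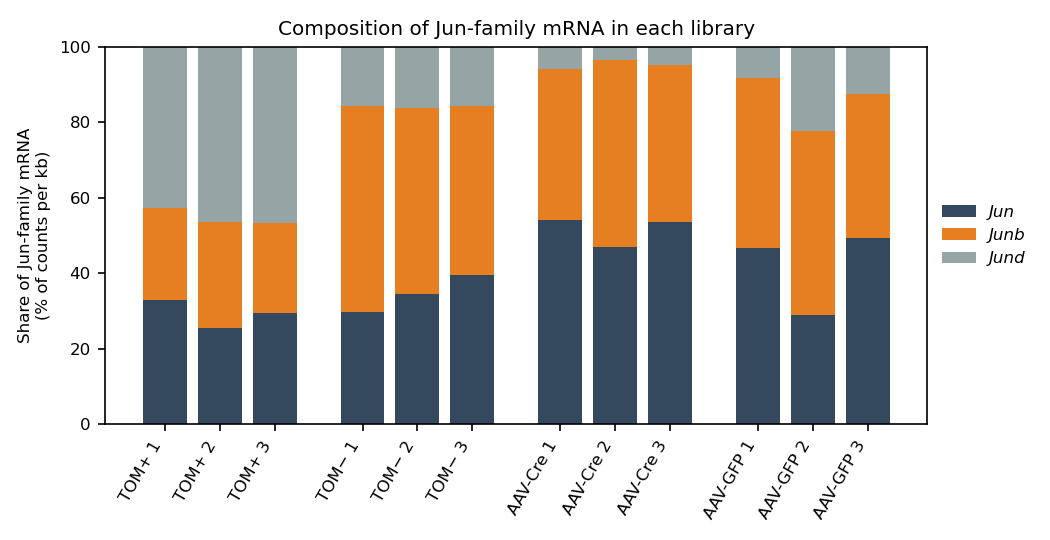
Shares of Jun, Junb and Jund in the counts per kb of the 3 genes (vertical axis, %), with a bar for each of the 12 libraries. Jund fills 42.8% to 46.7% of the bars of TOM positive libraries, against 15.6% to 16.2% in TOM negative ones, and 3.57% to 5.73% in AAV-Cre libraries, against 8.33% to 22.4% in AAV-GFP ones.

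Between the AAV groups, Jund made up 4.65% ± 1.08 of the Jun family after AAV-Cre and 14.4% ± 7.23 after AAV-GFP, with no overlap (exact permutation p = 0.1). The shares of Jun and Junb overlapped between these groups. In the Egr family of 4 genes, Egr2 made up 20.3% ± 2.66 after AAV-Cre and 9.5% ± 5.2 after AAV-GFP, and Egr1 made up 78.3% ± 2.45 after AAV-Cre and 86.0% ± 3.81 after AAV-GFP. Both shares were apart between the groups (exact permutation p = 0.1 each). Nr4a1 was the main member of its family of 3 in every library, at 97.6% ± 2.1 after AAV-Cre and 90.0% ± 4.33 after AAV-GFP, and at 93.5% ± 1.4 in the TOM positive group, against 99.3% ± 0.358 in the TOM negative group. Both pairs of groups were apart for Nr4a1 (exact permutation p = 0.1 each).

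Arc was also set against neuron markers, because Arc is known mainly from neurons, and against Fos. Per 1000 counts of the 15 neuron markers, Arc had 87.2, 104 and 114 counts in TOM positive libraries. It had 195, 217 and 196 in TOM negative libraries. By this ratio every TOM positive library was below every TOM negative one, the opposite order to that of the CPM. The means were 102 ± 13.6 in the TOM positive group, against 202 ± 12.7 in the TOM negative group (exact permutation p = 0.1, the smallest possible). Per 1000 Fos counts per kb, Arc stood at 196 ± 64.3 in the TOM positive group, against 7.78 ± 1.69 in the TOM negative group, again without overlap (exact permutation p = 0.1). As Arc was higher and Fos lower in every TOM positive library, this separation was fixed in advance and adds no test.

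**Figure D4:**
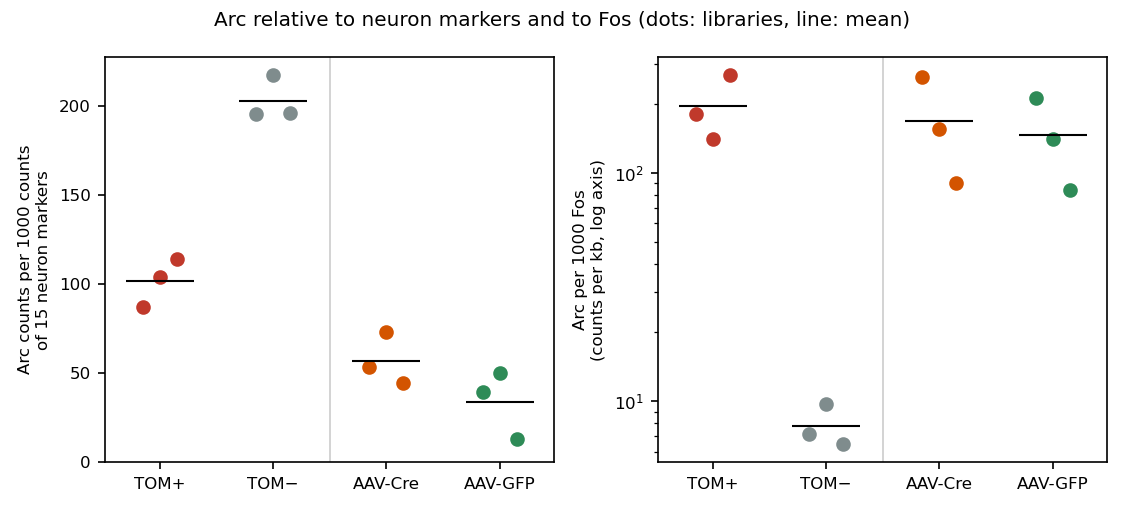
Arc counts per 1000 counts of 15 neuron markers (left, linear axis) and Arc per 1000 Fos in counts per kb (right, log axis) in each library, with the mean of 3 as a line. On the left TOM positive libraries lie at 87.2 to 114, below TOM negative libraries at 195 to 217, and on the right the order is reversed, while the AAV groups overlap in both panels.

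In the AAV groups, Arc per 1000 neuron marker counts was 53.3, 73.3 and 44.3 after AAV-Cre, against 39.3, 50.1 and 12.9 after AAV-GFP. These values overlapped (means 57 ± 14.9 after AAV-Cre and 34.1 ± 19.1 after AAV-GFP, exact permutation p = 0.2). Arc per 1000 Fos counts per kb also overlapped, at 169 ± 86.9 after AAV-Cre and 146 ± 64.7 after AAV-GFP (exact permutation p = 0.7). The neuron markers are a sum over 15 genes, so the ratio is not a level per neuron.

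Of the related genes, those of the immediate early response that are not members mostly fell with them in TOM positive cells. Among 25 other rapid immediate early genes, 15 fell, 0 rose and 10 did not pass with edgeR, with a median log2 change of -2.40. At an unadjusted p under 0.05, 18 were lower and 0 higher, the same numbers as DESeq2 called, while DESeq2 called 17.3% lower and 14.3% higher over all genes and edgeR 13.4% and 10.4%. Btg2, an antiproliferative gene, averaged 75.3 ± 9.12 CPM in TOM positive cells, against 888 ± 51.4 CPM in TOM negative cells, a log2 change of -3.56 ± 0.16 (edgeR adjusted p = 6.1e-05). Ier5 fell by 4.20 ± 0.21. Among 14 tested feedback inhibitors, 8 fell and 0 rose with edgeR, 1 was higher at an unadjusted p under 0.05, DESeq2 called 8 lower and 0 higher, and the median was -2.60. Zfp36, whose protein promotes decay of AU-rich mRNAs, fell by 4.38 ± 0.16, and Dusp6, a phosphatase of MAP kinases, fell by 3.03 ± 0.15.

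Relatives of the members moved in both directions. Among 10 tested AP-1 and ATF family genes, 4 fell, namely Jund, Atf4, Batf3 and Mafk, and Atf2 rose by 1.99 ± 0.39 on the log2 scale (edgeR adjusted p = 0.0111). Of 5 tested Egr and Nr4a relatives and cofactors, only Nab1, a corepressor of Egr proteins, passed, with a log2 change of 1.88 ± 0.57 (edgeR adjusted p = 0.0499), and it passed in 6 of 14 alternative settings. Of 26 upstream factors of the SRF, CREB and MAP kinase pathways, 4 fell, 1 rose and 21 did not pass, with a median of -0.02, close to the shares called over all genes. Rps6ka1, the gene of a ribosomal S6 kinase, fell by 3.77 ± 0.33, and Mapk14, the gene of p38α, fell by 1.91 ± 0.31.

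Genes linked to neuronal activity and to Arc were set against the same shares of 10.4% higher and 13.4% lower over all genes with edgeR. Of 14 tested neuronal activity-regulated genes, Vgf rose, 0 fell and 13 did not pass with edgeR, with a median of 0.99. The share that rose was close to that over all genes. At an unadjusted p under 0.05, 3 were higher and 1 lower, and DESeq2 called 2 higher and 1 lower. Vgf, which encodes a secreted neuropeptide precursor, averaged 11.9 ± 10.9 CPM in TOM positive cells, against 0.695 ± 0.312 CPM in TOM negative cells, an estimate of 4.08 ± 0.91 (edgeR adjusted p = 0.0174). That call was lost with some libraries left out, since 2 of 6 such fits kept it. Of 13 Arc partner genes of the synapse, 6 rose and 1 fell, with a median of 1.59. Sh3gl3, the gene of endophilin A3, rose by 2.01 ± 0.21, and Gria2, the gene of an AMPA receptor subunit, rose by 2.37 ± 0.36.

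**Figure D5:**
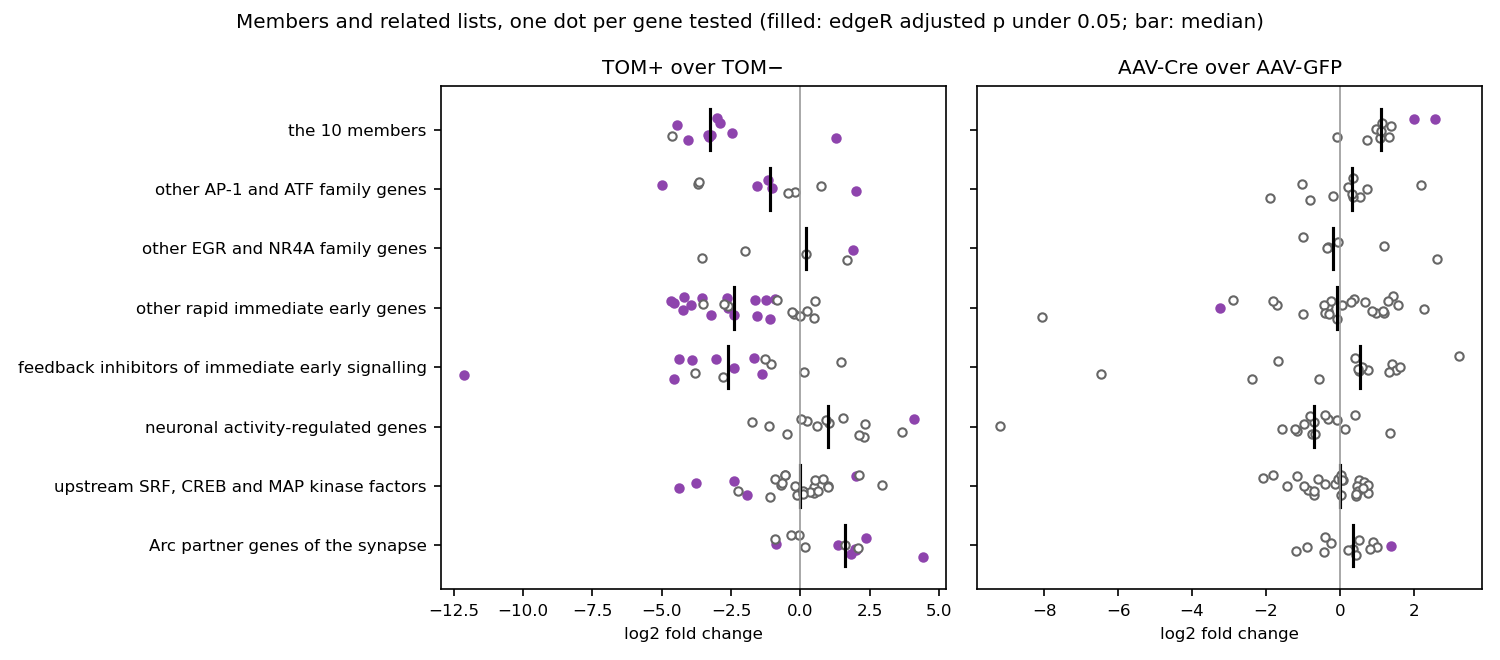
Log2 fold change (horizontal axis) of each tested gene in the 10 members and 7 related lists, for TOM positive over TOM negative cells on the left and AAV-Cre over AAV-GFP cells on the right. Filled dots passed an edgeR adjusted p of 0.05 and bars mark medians, which on the left run from -3.25 for the members to 1.59 for the Arc partners and on the right from -0.70 for neuronal activity-regulated genes to 1.12 for the members.

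The related genes were also counted after AAV-Cre, where 0.630% of all genes tested were called higher and 1.97% lower with edgeR, so lists of this size would hold few calls at that share. Among the other rapid immediate early genes 0 of 25 rose and 1 fell, Ccn1, which encodes a matricellular protein. Ccn1 averaged 15.2 ± 7.99 CPM after AAV-Cre and 145 ± 39.8 CPM after AAV-GFP, a log2 change of -3.25 ± 0.50 (edgeR adjusted p = 0.027). The call was lost without AAV-Cre replicate 2 or without any AAV-GFP replicate, with an adjusted p of up to 0.135. At an unadjusted p under 0.05, 6 of the 25 were higher and 4 lower, DESeq2 called 3 higher and 3 lower, and the median was -0.08. Of the same list, Ccn2 had 0 counts in all AAV-Cre libraries and 99 in the AAV-GFP libraries together, at least 31.6-fold lower against a floor of 3 counts over the group, with an edgeR adjusted p of 0.053.

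Of the Arc partners, Dnm3, the gene of a dynamin, was the only one of 13 to rise, by 1.38 ± 0.27 on the log2 scale (edgeR adjusted p = 0.0497), and this call was lost in each of 6 fits with 1 library left out. In the 5 other lists edgeR called 0 genes in either direction. Their unadjusted counts were 1 higher of 11 AP-1 and ATF genes, 0 of 6 Egr and Nr4a relatives, 2 higher and 2 lower of 14 feedback inhibitors, 2 lower of 15 neuronal activity-regulated genes and 1 lower of 26 upstream factors. DESeq2 gave the same 5 sets of counts in its adjusted calls. Their medians were 0.34, -0.17, 0.56, -0.70 and 0.01 in the same order.

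Single genes in those lists with the smallest p are given for their values. Tnfaip3, an inhibitor of NF-κB signalling, averaged 91.9 ± 51.8 CPM after AAV-Cre and 9.82 ± 6.24 CPM after AAV-GFP, an estimate of 3.23 ± 0.68 (edgeR adjusted p = 0.0516). Pcsk1, the gene of a prohormone convertase, had 0 counts in all AAV-Cre libraries and 211 in the AAV-GFP libraries together, at least 67.3-fold lower against a floor of 3 counts over the group (edgeR adjusted p = 0.051). Egr3 had 212 counts in all over the AAV-Cre libraries and 32 over the AAV-GFP libraries, an estimate of 2.63 ± 1.17 (edgeR adjusted p = 0.281). Rheb, a GTPase gene, had an estimate of -1.20 ± 0.24 (edgeR adjusted p = 0.051).

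Likeness of pattern was measured as the root mean square distance between 2 genes' log2 CPM over the 12 libraries, after centring within each table, among 12833 genes. The 5 genes nearest to Fos were Btg2 at 0.24, Fli1 and Egr1 at 0.33 each, and Jun and Ier2 at 0.35 each, against a median of 1.51 over all genes. Fosb was at rank 10 and Junb at rank 13. Other members lay farther from Fos, with Egr2 at rank 151, Nr4a1 at 167, Atf3 at 267 and Fosl2 at 1770. The 5 nearest to Arc were App and Tmem88b at 0.29 each and Fbxl5, Spg20 and Pigz at 0.31 each, against a median of 1.04. Arc was at rank 8233 from Fos, and Fos at rank 10055 from Arc. These genes were chosen for their pattern over the same libraries, so their changes follow from the choice and carry no test. App, the gene of the amyloid precursor protein, had log2 values of 1.38 for TOM positive over TOM negative cells and 1.18 for AAV-Cre over AAV-GFP cells.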

How the data were processed

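Read counts per gene symbol were deposited for 12 libraries in 2 joint tables and 6 single files, and the 6 single files equalled their columns in the AAV table. The AAV counts were of read pairs per gene name on GENCODE vM30, made by the authors with featureCounts 2.0.1 and no strand option, per the file headers. For the TOM table these settings were not stated. Per the submitters' processing notes, FastQC, Trim Galore, STAR, featureCounts and the build mm10 were used. The annotation of the headers belongs to a later assembly, so member positions are those of vM30 and promoter positions those of GRCm38.p6, and none was converted. Per the labels' protocols, libraries were made with a SMART-Seq kit, and no molecular identifiers are described, so PCR copies count as reads and bounds cover counting error only.

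The 6 libraries of a comparison were fitted by themselves in edgeR 4.0.16 under R 4.3.3 (TMM, filterByExpr with a minimum count of 10, quasi-likelihood test, two-sided). Benjamini-Hochberg adjustment ran over all genes tested, with a threshold of 0.05, and SEs come from the F statistic. CPM per kb used the exon lengths in the AAV files. Likeness used log2 CPM with a prior count of 2. The members, gene lists and tests were chosen with earlier results of these data known. Besides the members, the text names the 2 genes with the smallest p of each related list in each comparison and the 5 genes most like Fos and like Arc, and some genes that this rule takes are not reported here. Other genes are named where a list holds few that passed. Alternatives were RLE size factors, no scaling, no count filter, a replicate block, DESeq2 1.42.0, voom with quality weights (limma 3.58.1), no mitochondrially encoded genes, no non-neuronal marker genes, and each library left out. Within a group, no library pair agreed within sampling noise (chi-square per degree of freedom of 44.6 or more). The steps were tested on simulated data.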

Additional observations from a re-analysis of the deposited data

How the results depend on the processing

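For TOM positive over TOM negative cells, the 9 calls among the members held under all 14 alternatives, and Fosl2 also passed with DESeq2 and without TOM positive replicate 3. The number of all genes that passed, 3635, was 1987 with the replicate block and 1511 to 3547 with 1 library left out, lowest without TOM negative replicate 2. For AAV-Cre over AAV-GFP cells, the 2 members called became 0 with the replicate block, 5 with DESeq2 and 0 to 2 with 1 library left out, all higher. The 400 genes called became 712 without the count filter, 0 with the block, 1531 with DESeq2 and 0 to 296 with 1 library left out. Without scaling factors 34.5% of the AAV calls were higher, against 24.2% with TMM, and with DESeq2 36.7%. The estimate for Fosl2, -0.07, turned to 0.07 without scaling factors, 0.02 without non-neuronal marker genes, and 0.45, 0.01 and 0.24 without AAV-Cre replicate 1, AAV-Cre replicate 3 or AAV-GFP replicate 2, in a range of -1.06 to 0.45 with 1 library left out. The cause of these changes was not tested. No pairing of libraries by replicate number was detected, but 3 libraries in each group cannot exclude it. The correlations of same-numbered libraries' deviations were -0.0313, -0.0139 and 0.0246 in the TOM comparison and -0.0702, -0.07 and -0.0647 in the AAV comparison. Of 3 numbers, 1 and 0 had libraries that correlated best with their own number. Low counts limit Fosl2, which had 9 in all over the TOM positive libraries.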

Other observations

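Other genes that the naming rule took from the related lists are given by their values. For TOM positive over TOM negative cells, Nab2, a corepressor of Egr proteins, had an estimated log2 change of -3.56 ± 1.38 (edgeR adjusted p = 0.107), and Rasl11a had -1.12 ± 0.42 (edgeR adjusted p = 0.0971). For AAV-Cre over AAV-GFP cells, the AP-1 family gene Batf had an estimate of 2.19 ± 0.71 (edgeR adjusted p = 0.154) with groups that did not overlap. Atf2 had 0.55 ± 0.30 (edgeR adjusted p = 0.374) and Nab2 had 1.20 ± 0.78 (edgeR adjusted p = 0.472), both with overlapping groups. Sik1, the gene of a salt-inducible kinase, had 0, 7 and 0 counts in AAV-Cre libraries, against 61, 452 and 115 in AAV-GFP libraries (edgeR adjusted p = 0.0914). Mrtfb, a coactivator of serum response factor, had -1.81 ± 0.55 (edgeR adjusted p = 0.131).

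The genes most like Fos and Arc were chosen for their pattern over these same libraries, so their values are a description that the choice fixes, with no test. Of those like Fos, Fli1, which encodes an ETS transcription factor, had log2 values of -3.10 for TOM positive over TOM negative cells and 0.57 for AAV-Cre over AAV-GFP cells, and Ier2 had -3.95 and 0.99 in the same order. Of those like Arc, Tmem88b had 1.42 and 1.32, Fbxl5 had 1.07 and 0.63, Spg20 had 1.10 and 1.14, and Pigz had 1.08 and 0.91.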
